A study of Mus musculus with 12 samples.

Results

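The genes described here encode the receptors, G protein, cyclases and phosphodiesterases through which adrenergic and muscarinic signals set cyclic AMP (cAMP) in the heart. They were taken by symbol from a table of RNA levels in mouse hearts, and all 9 genes (Adrb1, Adra1a, Adra1b, Chrm2, Gnas, Adcy5, Adcy6, Pde3a and Pde4d) were found among its 56748. The groups were hearts of mice labelled Csrp3 knockout at postnatal day 21 (P21), wild type at P21, Csrp3 knockout at postnatal day 1 (P1) and wild type at P1, with 3 libraries each. Csrp3 encodes a LIM-domain protein of striated muscle, found at the Z disc. The labels give neither the strain, the sex nor the knockout allele, and they do not say that the 3 libraries of a group came from separate animals, so p-values measure the spread between these libraries, which may be partly technical.

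Noradrenaline and adrenaline act on the heart through beta-adrenergic receptors, which couple to the stimulatory G protein alpha subunit encoded by Gnas. That subunit activates adenylyl cyclase, the cAMP made activates protein kinase A, and the kinase phosphorylates calcium-handling and contractile proteins so that the heart beats faster and harder. Acetylcholine from the vagus nerve acts through the muscarinic receptor Chrm2 and an inhibitory G protein in the opposite direction, and phosphodiesterases break cAMP down close to where it is made. Alpha1-adrenergic receptors couple instead to the Gq class and phospholipase C, and are known in heart muscle for their part in growth.

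Levels are FPKM (fragments per kilobase of gene and depth, scaled by the authors), and depth was 9.671 to 15.865 M (megareads) per library in genes. Wild-type P21 libraries 1 and 2 stood apart, with 17344 and 15811 genes above 0, against 18348 to 20208 in the other P21 libraries. They are also the only libraries whose names end in R, and the labels used here do not say what it stands for. Calls of the 9 genes that involve wild-type P21 hearts are therefore also given without these libraries. Csrp3 itself read 671.4, 1112.2 and 926.0 FPKM in knockout P21 hearts and 1068.4, 1397.3 and 572.4 FPKM in wild-type P21 hearts. At P1 it read 168.3, 94.3 and 147.2 FPKM in knockout hearts and 183.2, 178.8 and 238.1 FPKM in wild-type hearts. Csrp3 RNA was present in all 6 libraries labelled knockout, and neither difference passed the test (limma, adjusted p = 0.92 at P21 and 1 at P1). A level over the whole gene does not show whether the transcript is intact, so the knockout groups are named by their labels throughout.

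The stretches of 250 bases before the start of 4 genes are shown because these genes are the ones whose levels the results below turn on, or, for Adrb1, the receptor at the head of the pathway. They come from RefSeq on build GRCm38.p6, plus strand: Adrb1 at chr19:56721867-56722116, Chrm2 at chr6:36387834-36388083, Adcy5 at chr16:35154614-35154863 and Pde4d at chr13:108653927-108654176. Capitals mark matches, on either strand, to 4 motifs searched: the core of the cAMP response element (TGACG), the M-CAT element (CATTCC), the GATA element (AGATAA) and the GC box (GGGCGG). No matches overlapped.
Adrb1: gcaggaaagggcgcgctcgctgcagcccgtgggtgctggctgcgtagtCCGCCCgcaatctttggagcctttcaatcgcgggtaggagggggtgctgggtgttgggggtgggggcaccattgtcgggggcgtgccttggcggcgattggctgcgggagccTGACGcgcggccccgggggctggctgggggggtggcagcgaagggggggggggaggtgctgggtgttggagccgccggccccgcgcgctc
Chrm2: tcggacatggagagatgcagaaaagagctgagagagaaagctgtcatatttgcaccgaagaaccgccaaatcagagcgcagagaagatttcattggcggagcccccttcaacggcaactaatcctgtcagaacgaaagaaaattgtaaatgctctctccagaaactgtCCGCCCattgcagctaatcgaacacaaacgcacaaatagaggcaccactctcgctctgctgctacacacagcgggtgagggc
Adcy5: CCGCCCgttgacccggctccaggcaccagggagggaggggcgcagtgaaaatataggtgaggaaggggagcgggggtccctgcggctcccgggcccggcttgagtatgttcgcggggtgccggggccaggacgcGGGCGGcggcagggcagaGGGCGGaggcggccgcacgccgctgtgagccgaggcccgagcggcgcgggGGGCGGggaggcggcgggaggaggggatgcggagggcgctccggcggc
Pde4d: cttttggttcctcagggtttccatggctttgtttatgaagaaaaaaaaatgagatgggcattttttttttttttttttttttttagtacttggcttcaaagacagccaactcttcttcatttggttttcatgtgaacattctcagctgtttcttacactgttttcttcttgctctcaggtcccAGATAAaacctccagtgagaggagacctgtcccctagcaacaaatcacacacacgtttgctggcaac
The Adrb1 stretch held 1 cAMP response element core and 1 GC box, Chrm2 held 1 GC box, Adcy5 held 4 GC boxes, and Pde4d held 1 GATA element. Among 32851 promoters of the same length, 17.8% held the cAMP response element core, 32.7% the GC box, 12.6% the M-CAT element and 9.99% the GATA element. GC content was 74.0% for Adrb1, 50.0% for Chrm2, 78.0% for Adcy5 and 38.8% for Pde4d, against a median of 52.4%. A match is a description of the letters and not a binding site. Adra1b and Gnas have more than 1 start in the table of promoters, and Adra1a, Adcy6 and Pde3a have no entry. Each stretch shown lies before a listed start, while FPKM is over the whole gene. Whether transcripts in these hearts began at those starts was not examined.

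Per unit of gene length, Adcy6 was the highest of the 9 genes by group mean in all 4 groups, and Adra1a the lowest. Adcy6 averaged 39.6 ± 11.6 FPKM in knockout P21 hearts, 41.3 ± 16.0 in wild-type P21 hearts, 48.0 ± 9.9 in knockout P1 hearts and 56.1 ± 8.47 in wild-type P1 hearts (SD, n = 3 each). Adra1a stayed between 0.0512 and 0.196 FPKM, from 4 to 20 reads per library, which was below the minimum for testing of 1 FPKM in at least 3 libraries. The other 8 were tested with limma on log2(FPKM + 0.5) across 13537 genes, with Benjamini-Hochberg adjustment over all of them and a threshold of 0.05. Fold changes on that scale understate changes of low genes. The library with the fewest reads held 104 for Adrb1, 93 for Adra1b, 114 for Gnas and 35 for Pde4d, so single values of these genes are less precise than those of Adcy6, which had at least 921.

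**Figure D1:**
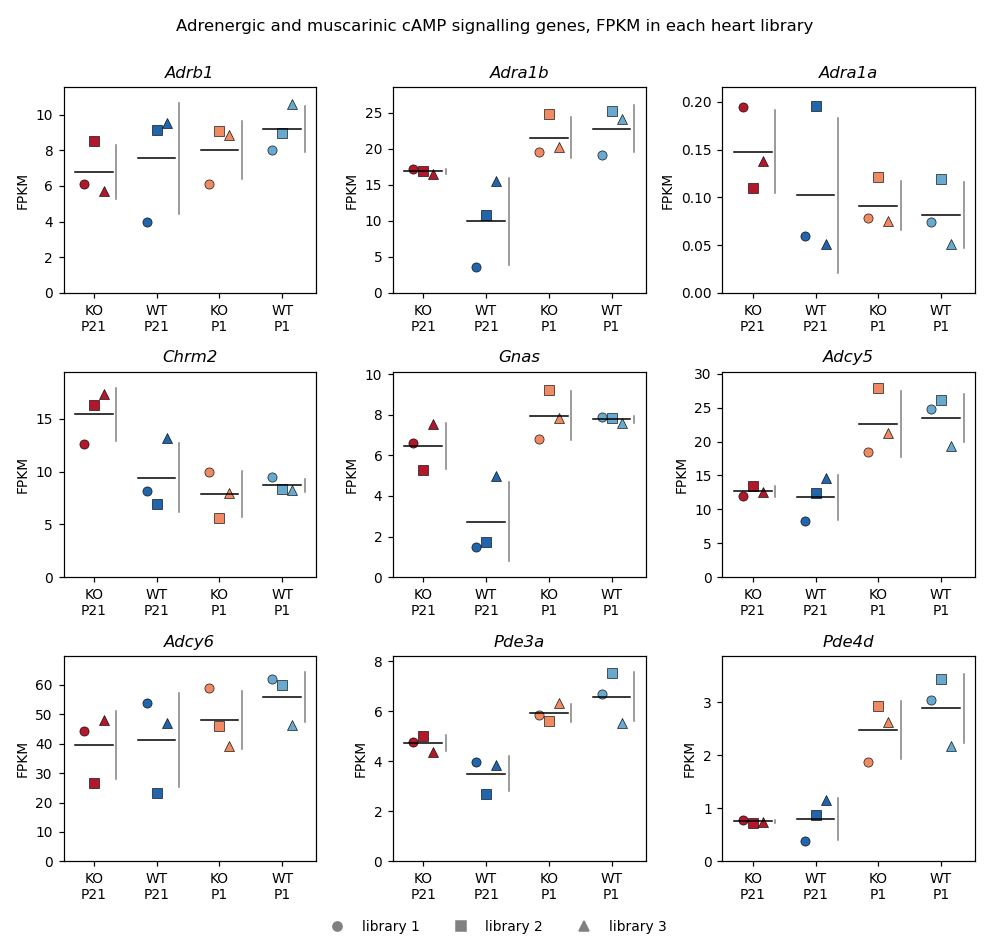
FPKM of each of the 9 genes (vertical axis, linear, from 0) in the 12 heart libraries, with a panel per gene and the groups along the horizontal axis. Points are libraries (circle, square and triangle for libraries 1, 2 and 3), horizontal bars are group means, and grey vertical lines span the mean ± SD (n = 3). Pde4d and Adcy5 are lower at P21 in both genotypes, Chrm2 is highest in knockout P21 hearts (12.6 to 17.4 FPKM), and Adra1b spreads over 3.55 to 15.5 FPKM in wild-type P21 hearts.

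Between P21 and P1, Chrm2 was the 1 tested gene of 8 that was higher at P21 by sign, in both genotypes, and the rest were lower. Pde4d and Adcy5 passed the test as lower in both genotypes, Adra1b, Gnas and Pde3a as lower in wild type, and Chrm2 as higher in knockout. The difference between the genotypes' changes passed for 0 of the 8. In knockout hearts 1 of the 8 tested genes was higher and 2 were lower, against 25.0% of all tested genes past the threshold (11.8% higher and 13.2% lower). Without knockout P21 library 3, or without knockout P1 library 2, 1 gene was called in knockout, Pde4d, beside 20.4% and 15.4% of all tested genes. In wild-type hearts 0 were higher and 5 lower, against 44.9% of all tested genes (21.5% higher and 23.3% lower). P21 and P1 libraries did not overlap for 1 higher and 4 lower genes in knockout, beside 22.6% and 24.8% of all tested genes, and for 0 higher and 5 lower in wild type, beside 24.4% and 27.5%. The median change of the 8 genes was -0.30 on the log2 scale in knockout and -0.91 in wild type, beside -0.02 and -0.04 over all tested genes. In bulk hearts, fewer cells of a type and less RNA per cell cannot be told apart.

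**Figure D2:**
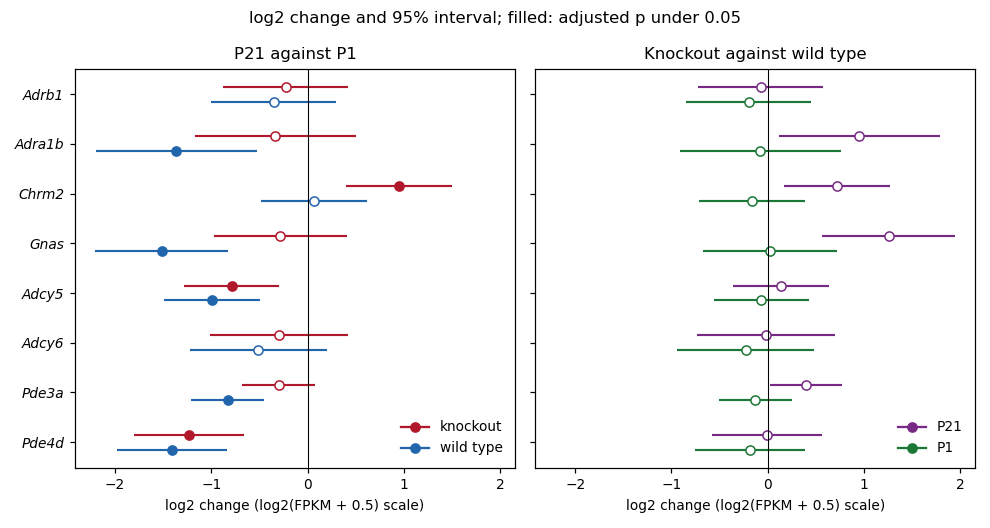
log2 change (horizontal axis, log2(FPKM + 0.5) scale) with its 95% interval for the 8 tested genes, P21 against P1 on the left and knockout against wild type on the right. Filled symbols passed an adjusted p of 0.05. Pde4d lies at -1.23 in knockout and -1.41 in wild type, and no symbol is filled for knockout against wild type.

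Among the receptors, Adrb1 (the beta1-adrenergic receptor, the main beta receptor of heart muscle) did not pass the test with age. It read 6.09, 8.51 and 5.72 FPKM in knockout P21 hearts, 3.97, 9.15 and 9.50 in wild-type P21 hearts, 6.13, 9.06 and 8.85 in knockout P1 hearts, and 8.03, 8.94 and 10.6 in wild-type P1 hearts. The ranges of neighbouring groups overlapped all along the order wild-type P1, knockout P1, wild-type P21, knockout P21. Its change between P21 and P1 was -0.23 ± 0.30 (SE) in knockout and -0.35 ± 0.30 in wild type (adjusted p = 0.618 and 0.353). The 95% interval ran between -0.88 and 0.42 in knockout.

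Chrm2 (the M2 muscarinic receptor, through which the vagus nerve slows the heart) read 12.6, 16.3 and 17.4 FPKM in knockout P21 hearts and 10.0, 5.64 and 8.01 FPKM in knockout P1 hearts. All 3 knockout P21 values lay above all 3 knockout P1 values. The change was 0.95 ± 0.25 (SE), a 1.93-fold rise, with an adjusted p of 0.0182. In wild type it read 8.15, 6.98 and 13.2 FPKM at P21 and 9.45, 8.33 and 8.31 FPKM at P1, so that the groups overlapped, and the change was 0.07 ± 0.25 (adjusted p = 0.848). The difference between these changes was 0.88 ± 0.36, with an unadjusted p of 0.0299 and an adjusted p of 0.687, so the genotypes were not shown to differ. The call in knockout was lost without knockout P21 library 2 (0.91, adjusted p = 0.0553), without knockout P21 library 3 (0.86, adjusted p = 0.0595) and without knockout P1 library 2 (0.74, adjusted p = 0.0816). Among P21 hearts Chrm2 was highest in library 3 of each genotype, where the summed level of 6 atrial muscle markers was also highest, at 3758.5 FPKM in knockout library 3 and 1361.1 FPKM in wild-type library 3, against 628.1 and 785.1 FPKM in the other knockout libraries and 220.9 and 107.8 FPKM in the other wild-type libraries. In knockout P1 hearts that sum was 2919.8, 1632.5 and 1306.5 FPKM, so knockout P21 libraries 1 and 2 lay below every knockout P1 library and library 3 above. The part of atrial tissue in the Chrm2 result was not tested.

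Adra1b (the alpha1B-adrenergic receptor) was tight in knockout P21 hearts and spread widely in wild-type P21 hearts. It read 17.2, 17.0 and 16.5 FPKM in knockout P21 hearts and 19.6, 24.8 and 20.2 FPKM in knockout P1 hearts, and the change of -0.33 ± 0.38 did not pass the test (adjusted p = 0.565) although the groups did not overlap. In wild type it read 3.55, 10.8 and 15.5 FPKM at P21 and 19.1, 25.2 and 24.1 FPKM at P1. All 3 wild-type P21 values were below all wild-type P1 values, and the fall was -1.36 ± 0.38, to 0.389 of the P1 level (adjusted p = 0.0138). Without wild-type P21 libraries 1 and 2 it was -0.53 (adjusted p = 0.0963), and in a fit of wild-type libraries alone the call was also lost (adjusted p = 0.0659). The knockout change minus the wild-type change was 1.03 ± 0.54 (adjusted p = 0.687). Adra1a (the alpha1A-adrenergic receptor) read 0.195, 0.110 and 0.138 FPKM in knockout P21 hearts, 0.0592, 0.196 and 0.0515 in wild-type P21 hearts, 0.0782, 0.121 and 0.0749 in knockout P1 hearts, and 0.0743, 0.119 and 0.0512 in wild-type P1 hearts. A fit with no minimum on levels, over 29977 genes, gave it no call in any comparison, with adjusted p from 0.631 to 1.

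Gnas (the stimulatory G protein alpha subunit, which links receptor to cyclase) read 6.60, 5.27 and 7.52 FPKM in knockout P21 hearts and 6.80, 9.22 and 7.86 FPKM in knockout P1 hearts, which overlapped (change -0.28 ± 0.32, adjusted p = 0.553). In wild type it read 1.50, 1.71 and 4.97 FPKM at P21 and 7.90, 7.83 and 7.57 FPKM at P1. The wild-type P21 values all lay below P1, and the fall was -1.52 ± 0.32, to 0.35 of the P1 level (adjusted p = 0.00302). Without wild-type P21 libraries 1 and 2 it was -0.60 (adjusted p = 0.0844). The knockout change minus the wild-type change was 1.23 ± 0.45 (adjusted p = 0.687). On GRCm38 annotation, 22.0% of the exonic bases of Gnas are shared with genes on the opposite strand. The share was 8.92% for Adcy6, 5.82% for Pde3a and 2.35% for Chrm2. No source used here says if reads were counted by strand, so reads of these opposite-strand genes cannot be told apart from those of the 4 genes. The 4 genes may hold such reads, or lack reads of their own on shared bases, and neither was examined. By the deposited positions, 5 genes overlap the span of Gnas, 2 of them on the opposite strand, and their highest value was 10.667 FPKM. Whether their exons overlap at those positions was not examined.

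Adcy5 (with Adcy6 a main adenylyl cyclase of heart muscle) read 11.9, 13.5 and 12.6 FPKM in knockout P21 hearts and 18.4, 27.9 and 21.3 FPKM in knockout P1 hearts. In wild type it read 8.23, 12.4 and 14.7 FPKM at P21 and 24.8, 26.2 and 19.4 FPKM at P1. P21 and P1 values did not overlap in either genotype, and the fall was -0.79 ± 0.23 in knockout (adjusted p = 0.0257) and -0.99 ± 0.23 in wild type (adjusted p = 0.00478). In knockout the call was lost without knockout P21 library 1 (-0.74, adjusted p = 0.081) or 3 (-0.79, 0.0599), without knockout P1 library 2 (-0.63, 0.108) or 3 (-0.82, 0.059), and with no minimum on levels (adjusted p = 0.0583). In wild type it was lost without wild-type P21 libraries 1 and 2 (-0.65, adjusted p = 0.0917). Adcy6 (the other main cyclase) read 44.2, 26.5 and 48.2 FPKM in knockout P21 hearts, 53.8, 23.2 and 46.9 FPKM in wild-type P21 hearts, 58.8, 45.9 and 39.3 FPKM in knockout P1 hearts and 61.9, 59.9 and 46.3 FPKM in wild-type P1 hearts. Library 2 was the lowest of its group in both P21 groups, and neither age change passed the test (-0.30 in knockout with adjusted p = 0.545, and -0.51 in wild type with adjusted p = 0.22).

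Of the phosphodiesterases, Pde4d (a cAMP-specific enzyme known in heart muscle for work close to the ryanodine receptor) fell in both genotypes. It read 0.787, 0.732 and 0.738 FPKM in knockout P21 hearts and 1.87, 2.94 and 2.63 FPKM in knockout P1 hearts, and in wild type 0.376, 0.869 and 1.16 FPKM at P21 and 3.05, 3.44 and 2.17 FPKM at P1. No P21 value reached the lowest P1 value of its genotype. The fall was -1.23 ± 0.26 in knockout (adjusted p = 0.00603) and -1.41 ± 0.26 in wild type (adjusted p = 0.00162). It kept its call in both without the minimum on levels (adjusted p = 0.0147 and 0.00429), which is the check that applies here because P1 libraries carried Pde4d past that minimum, and in wild type without P21 libraries 1 and 2 (-1.01, adjusted p = 0.0319). Pde3a (the phosphodiesterase that cyclic GMP inhibits, known for cAMP near the sarcoplasmic reticulum) read 4.79, 5.03 and 4.39 FPKM in knockout P21 hearts and 5.87, 5.63 and 6.34 FPKM in knockout P1 hearts. In wild type it read 3.96, 2.71 and 3.84 FPKM at P21 and 6.71, 7.52 and 5.54 FPKM at P1. P21 and P1 values did not overlap in either genotype, but the change passed the test only in wild type (-0.83 ± 0.17, adjusted p = 0.00292, and -0.70, adjusted p = 0.0321, without wild-type P21 libraries 1 and 2), against -0.30 ± 0.17 in knockout (adjusted p = 0.228); the genotypes' difference, 0.53, had an adjusted p of 0.687.

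Whether the knockout label changed these genes was asked at each age. At P21, 0 of the 8 tested genes passed the test, beside 0.0665% of all tested genes. At an unadjusted p under 0.05, 4 passed (Gnas, Chrm2, Adra1b and Pde3a), beside 13.8% of all tested genes. A voom fit to the reads recovered from the FPKM values gave 0 calls at an adjusted p under 0.05 and 4 genes at an unadjusted p under 0.05, beside 11.9% of all tested genes. Gnas, Adra1b and Pde3a had knockout values above all wild-type values, beside 6.90% of all tested genes with such higher groups. The log2 differences were 1.26 ± 0.32 for Gnas (adjusted p = 0.168), 0.95 ± 0.38 for Adra1b (0.315), 0.72 ± 0.25 for Chrm2 (0.277) and 0.40 ± 0.17 for Pde3a (0.337). The remaining 4 lay between -0.08 for Adrb1 and 0.14 for Adcy5.

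These P21 differences depended on wild-type P21 libraries. Without wild-type P21 library 3, Gnas (1.71, adjusted p = 0.00112), Chrm2 (0.97, adjusted p = 0.0227) and Adra1b (1.36, adjusted p = 0.0268) passed the test, but so did 13.4% of all tested genes, against 0.0665% with the library in. Without libraries 1 and 2, the differences were 0.34 for Gnas, 0.12 for Adra1b, 0.20 for Chrm2 and 0.27 for Pde3a. The sums of fibroblast markers moved with the same groups at P21, at 481.7 to 679.1 FPKM in knockout and 268.8 to 418.0 FPKM in wild type, with 7 of the 8 markers higher in knockout by sign and 0 past the test, and their part in the differences was not tested. Endothelial markers summed to 534.4 to 710.2 FPKM in knockout and 680.5 to 2012.4 FPKM in wild type.

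At P1, 0 of the 8 passed the test, all with an adjusted p of 1, beside 0% of all tested genes. None passed at an unadjusted p under 0.05, beside 0.606% of all tested genes, and voom gave 0 genes at either threshold, beside 0.672% at the unadjusted one. The log2 differences ran between -0.23 for Adcy6 and 0.02 for Gnas, with standard errors of 0.17 to 0.38, and all 8 genes overlapped between the groups, beside 7.96% of all tested genes that did not. The knockout effect at P21 minus that at P1 gave 0 calls among the 8 genes in limma, beside 0% of all tested genes, and 0 calls with voom. At an unadjusted p under 0.05 of the limma model fitted across all genes, Gnas (1.23) and Chrm2 (0.88) passed, beside 6.94% of all tested genes, and voom gave 3 genes, beside 6.76%. Without wild-type P21 library 3, Gnas passed at 1.69 (adjusted p = 0.0151), with 2.16% of all tested genes.

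The scale of the deposited values decided some of these calls. When the table was rescaled to TPM (each library brought to the same total per unit of gene length), the median change of all tested genes between P21 and P1 was -0.65 in knockout and -1.10 in wild type, and with the mitochondrial and 20 highest genes left out of the total it was -0.44 and -0.88. Calls over all genes split into 1599 higher and 1789 lower in knockout as deposited, 630 and 4913 with TPM, and 706 and 2887 with the reduced total. In wild type the split was 2917 and 3160 as deposited, 756 and 8408 with TPM, and 887 and 7294 with the reduced total. Relative to those medians the rise of Chrm2 in knockout was 0.97 as deposited, 0.97 with TPM and 0.93 with the reduced total, but the value itself was 0.32 with TPM (adjusted p = 0.498) and 0.49 with the reduced total (adjusted p = 0.371). In wild type the Chrm2 value took the opposite sign under both rescalings, at -1.04 with TPM (adjusted p = 0.0257) and -0.87 with the reduced total, while relative to the median it was 0.06 and 0.02. The falls of Pde4d, Adcy5, Gnas, Adra1b and Pde3a in wild type stayed past the threshold under both. Both rescalings moved the median gene lower, which favours calls of lower genes, so that outcome was no test of these falls. With TPM, Adrb1 (-0.89, adjusted p = 0.0476) and Pde3a (-0.96, adjusted p = 0.0231) passed as lower in knockout, and neither did with the reduced total. In wild type Adrb1 (-1.47 with TPM and -1.29 with the reduced total) and Adcy6 (-1.65 with TPM and -1.50 with the reduced total) passed as lower under both, where relative to the median Adrb1 was -0.37 and -0.40 and Adcy6 -0.55 and -0.62. For knockout against wild type at P21 the median of all tested genes was 0.34 under both rescalings, and relative to it Gnas was 1.31 with TPM and 1.20 with the reduced total, Adra1b 0.99 and 1.00, Chrm2 0.75 and 0.77, and Pde3a 0.42 and 0.40.

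**Figure D3:**
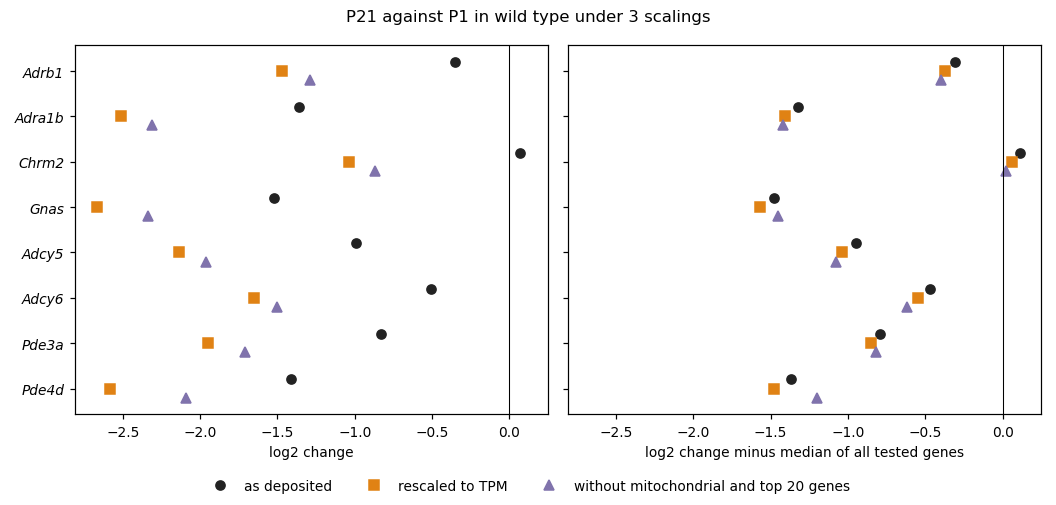
log2 change, P21 against P1 in wild type, of the 8 tested genes (rows) under 3 scalings, as values on the left and relative to the median of all tested genes on the right. Chrm2 moves between 0.07 and -1.04 by value, but stays close to 0 relative to the median.

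Ratios of genes within a library do not depend on the scale and are given as a description, with no test. Chrm2 over Adrb1, the inhibitory against the stimulatory receptor, was 2.07, 1.91 and 3.05 in knockout P21 hearts, 2.05, 0.762 and 1.39 in wild-type P21 hearts, 1.63, 0.622 and 0.905 in knockout P1 hearts, and 1.18, 0.931 and 0.783 in wild-type P1 hearts. All 3 knockout P21 ratios lay above all P1 ratios. Pde3a over Pde4d was 5.95 to 6.87 in knockout P21 hearts, 3.12 to 10.5 in wild-type P21 hearts, 1.91 to 3.14 in knockout P1 hearts and 2.19 to 2.55 in wild-type P1 hearts. Gnas over Adcy6 was 0.149 to 0.199 in knockout P21 hearts and 0.0278 to 0.106 in wild-type P21 hearts, and those groups did not overlap. Both of these genes carry the limit on shared exonic bases given above. Adra1b over Adrb1 was 2.00 to 2.88 in knockout P21 hearts and 0.894 to 1.63 in wild-type P21 hearts, which did not overlap either, and 2.29 to 3.19 in knockout P1 hearts and 2.27 to 2.82 in wild-type P1 hearts. Adcy6 over Adcy5 overlapped between all groups, at 1.64 to 6.54 over the 12 libraries.

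**Figure D4:**
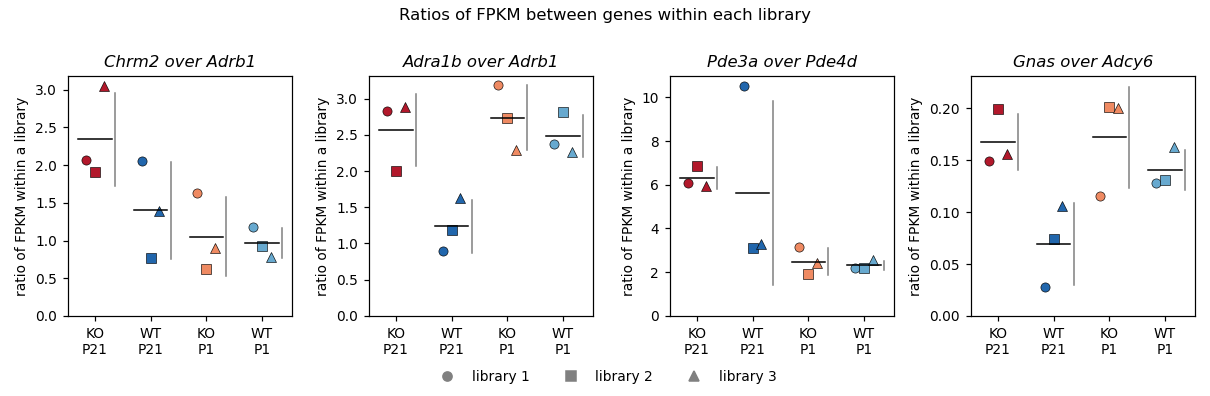
Ratio of FPKM between genes within a library (vertical axis, from 0), with a panel per ratio and the groups along the horizontal axis; points are libraries, horizontal bars are group means, and grey vertical lines span the mean ± SD (n = 3). Chrm2 over Adrb1 is 1.91 to 3.05 in knockout P21 hearts, and Gnas over Adcy6 is 0.149 to 0.199 in knockout P21 hearts, above the 0.0278 to 0.106 of wild-type P21 hearts.

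Of the other adrenergic and muscarinic receptors in the lists, Adra2b (the alpha2B-adrenergic receptor) passed the test as higher at P21 than at P1 in wild type, and Adra1d (the alpha1D-adrenergic receptor) as lower. Adra2b read 2.12, 2.64 and 1.31 FPKM in wild-type P21 hearts and 0.323, 0.144 and 0.418 FPKM in wild-type P1 hearts, which did not overlap, and the log2 change was 1.64 ± 0.32 (SE, adjusted p = 0.00204). Adra2b reached the minimum only in P21 libraries, and with no minimum its adjusted p was 0.0036. Adra1d was listed at 0, 0 and 1.03 FPKM in wild-type P21 hearts and at 1.73, 1.77 and 0.912 FPKM in wild-type P1 hearts, which overlapped, and the log2 change was -1.41 ± 0.44 (adjusted p = 0.0215). Without wild-type P21 libraries 1 and 2, Adra2b (1.20) and Adra1d (-0.34) did not pass. Adra1d also lost its call without wild-type P21 library 1 or 2 (-1.14 for each) and without wild-type P1 library 1 (-1.30) or 2 (-1.29). Of the 10 receptors in the list, 7 stayed below the minimum.

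Of 136 symbols in 10 lists of the wider pathway, 134 were in the table and 101 were tested. With age, 20 were higher and 14 lower in knockout hearts, beside 25.0% of all tested genes called, and 25 were higher and 33 lower in wild-type hearts, beside 44.9%. The wild-type count of 58 became 38 without wild-type P1 library 2, where 31.5% of all tested genes were called. The G protein subunits gave 0 higher and 5 lower of 16 in knockout, and 2 higher and 7 lower in wild type. Among them Gnai1 (an inhibitory alpha subunit) fell by 1.53 in knockout and 1.66 in wild type, and Gng2 (a gamma subunit) by 2.21 in knockout and 3.07 in wild type. Gnb1 (a beta subunit) was at -0.70 in knockout and Gna13 (of the G12/13 class) at -0.82 in wild type. In wild type Gnb1 read 44.9 to 51.3 FPKM at P21 and 65.8 to 71.1 FPKM at P1. In knockout Gna13 read 5.16 to 5.72 FPKM at P21 and 6.83 to 8.12 FPKM at P1. Of 4 other adenylyl cyclases, 1 was higher and 1 lower in knockout and 2 were higher and 2 lower in wild type, with Adcy7 (a cyclase known from blood cells) up by 2.26 in knockout and 1.87 in wild type and Adcy9 at -0.74 in knockout and -0.91 in wild type. The knockout call of Adcy9 was lost without knockout P21 library 1 or 3 or knockout P1 library 2 or 3 (-0.63 to -0.77), and its wild-type call without wild-type P21 libraries 1 and 2 (-0.74). Of 11 other phosphodiesterases, 2 were higher and 1 lower in knockout and 2 higher and 4 lower in wild type, with Pde4c up by 2.53 in knockout and 2.81 in wild type and Pde3b at -1.03 in knockout and -1.80 in wild type. The knockout call of Pde3b was lost without knockout P21 library 2 (-0.93) or knockout P1 library 3 (-0.87). The 13 genes of protein kinase A, Epac and their inhibitors gave 2 higher and 1 lower in knockout and 3 higher and 6 lower in wild type, with Rapgef4 (Epac2, an exchange factor that cAMP binds) up by 1.89 in knockout and 1.45 in wild type. Prkacb (a catalytic subunit of protein kinase A) was at -1.15 in wild type. In knockout it read 6.90 to 7.94 FPKM at P21 and 8.84 to 10.7 FPKM at P1. Adcy7, Pde4c and Rapgef4 reached the minimum only in P21 libraries, Adcy9 and Pde3b only in P1 libraries, and Gng2 in all 6 P1 libraries and 1 of the 6 P21 libraries, so each entered the test through the age where it was high, and list counts that hold them carry the same limit. With no minimum these 6 genes kept their calls and values in both genotypes, with the highest adjusted p for Adcy9 in knockout (0.0483) and Pde3b in knockout (0.0304).

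Anchoring proteins gave 3 higher and 1 lower of 12 in knockout and 2 higher and 7 lower in wild type, with Cmya5 (a muscle anchor of protein kinase A) up by 2.04 in knockout and 1.88 in wild type, and Ezr (ezrin, which also binds the kinase) at -0.96 in knockout and -1.55 in wild type. Receptor desensitisation genes gave 3 higher and 1 lower of 12 in knockout and 4 higher and 1 lower in wild type, with Rgs4 (a brake on Gi and Gq signals) up by 2.19 in knockout and 1.87 in wild type. Of 15 kinase substrates and gated channels, 6 were higher and 3 lower in knockout and 6 higher and 4 lower in wild type. Hcn2 (a pacemaker channel that cAMP opens) was up by 2.47 in knockout and 2.48 in wild type. Tnni3 (cardiac troponin I, a contractile substrate) was up by 2.64 in wild type. In knockout Tnni3 read 2618.7 to 4131.8 FPKM at P21 and 907.6 to 1136.3 FPKM at P1. Genes named in 1 genotype were picked by adjusted p there, and no difference between genotypes is implied. The 10 genes of cAMP-responsive transcription had 0 calls in each genotype. Autonomic nerve genes had 2 higher and 1 lower of 5 tested in each genotype, and Ddc (the decarboxylase that makes dopamine) was the lower, at -3.43 in knockout and -3.51 in wild type. Beside these list counts, 25.0% of all tested genes were called in knockout and 44.9% in wild type. Changes in these lists are on the log2 scale. By scaling, Adcy4 in wild type and Pde7a in knockout, and Rapgef3 and Rgs5 in both genotypes, lost their calls under both rescalings.

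**Figure D5:**
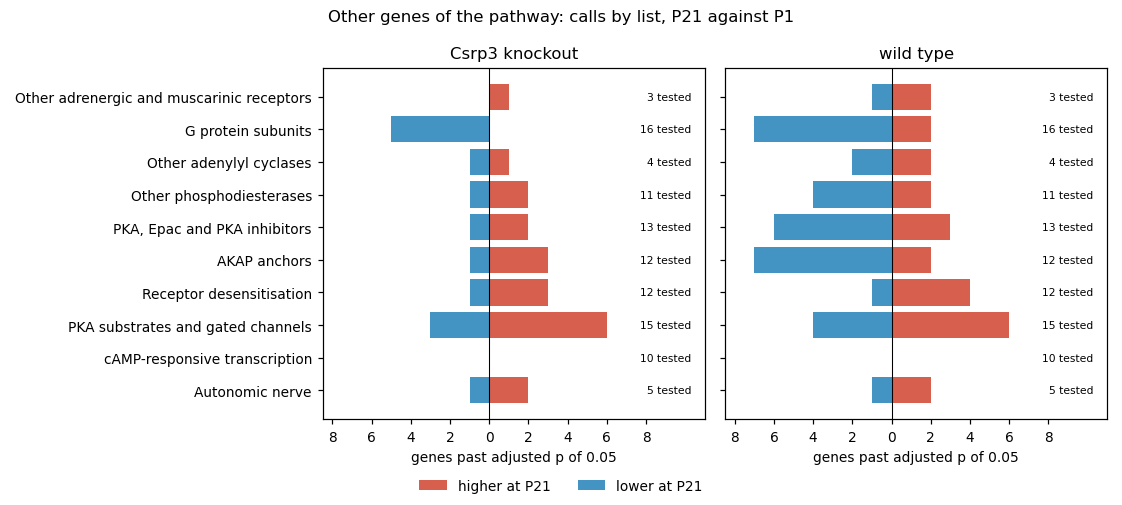
Number of genes past an adjusted p of 0.05 (horizontal axis, higher to the right and lower to the left) in each of the 10 lists, P21 against P1 in knockout on the left and in wild type on the right, with the number tested beside each. The G protein list holds 0 higher and 5 lower in knockout, and the transcription list has no call.

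Knockout against wild type gave 1 call among the 101 pathway genes at P21, beside 0.0665% of all tested genes, and 0 at P1. The call was Hspb6 (a small heat shock protein that protein kinase A phosphorylates), at 781.6, 555.4 and 718.3 FPKM in knockout hearts and 144.3, 156.3 and 273.2 FPKM in wild-type hearts. The groups did not overlap, and the difference was 1.88 ± 0.27 (limma, adjusted p = 0.0299). It did not pass in 18 of 22 alternatives, though it kept its sign, at 1.31 to 2.31. The difference of the effects gave 0 calls, and voom gave 0 calls in all 3 comparisons. At an unadjusted p under 0.05 in limma, 17 of the 101 passed at P21, beside 13.8% of all tested genes, 0 at P1, beside 0.606%, and 11 for the difference of the effects, beside 6.94%. With voom at that threshold the counts were 20, 0 and 12, beside 11.9%, 0.672% and 6.76% of all tested genes.

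Likeness of pattern was measured over 12 libraries as the root mean square difference of centred log2 values, among 10881 candidate genes, and nothing about function follows from it. Pde3a lay closest to Atp6v1a (0.077) and Bace1 (0.078), beside its own SD of 0.35. Pde4d lay closest to Arhgap35 (0.115), Adcy5 to Eml4 (0.116), Adcy6 to Cramp1 (0.126) and Gnas to Lrig1 (0.176). The closest for Adrb1 was Vstm4 (0.183), for Chrm2 Plpp3 (0.188) and for Adra1b Tmem252 (0.19).

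Some of the marker lists moved with age. The counts of markers below stand beside 25.0% of all tested genes called in knockout (11.8% higher and 13.2% lower). In wild type 44.9% were called (21.5% higher and 23.3% lower). The 8 heart muscle markers summed to 20665.5 to 31704.3 FPKM at P21 and 8483.2 to 12600.2 FPKM at P1, so the hearts carried the defining markers of the labelled tissue. Macrophage markers summed to 189.9 to 490.7 FPKM at P21 and 39.1 to 70.8 FPKM at P1, with 7 of 8 past the test as higher in knockout and 6 of 8 in wild type. Red cell markers summed to 7036.0 to 41976.9 FPKM at P21 and 1652.2 to 4404.3 FPKM at P1. Atrial muscle markers summed to 107.8 to 3758.5 FPKM at P21 and 1306.5 to 2919.8 FPKM at P1, which overlapped. Of these 6 markers 0 passed the test in either genotype, with a median log2 change of -3.34 in knockout and -3.41 in wild type. Smooth muscle markers summed to 276.6 to 842.6 and 195.3 to 333.7 FPKM, Schwann cell and neuron markers to 7.18 to 18.6 and 2.92 to 4.25 FPKM, and sinoatrial markers to 4.09 to 8.36 and 3.81 to 5.49 FPKM, in P21 and P1 hearts. Within the Schwann cell and neuron sums Dbh alone read 2.99 to 16.8 FPKM at P21, and 5 of those 8 markers stayed below 1 FPKM in all libraries. Adipocyte markers stayed at or below 13.1 FPKM at P21 and 0.106 FPKM at P1, and none was tested. Fibroblast markers summed to 481.7 to 679.1 FPKM at P21 and 393.7 to 715.2 FPKM at P1 in knockout, which overlapped, and to 268.8 to 418.0 FPKM at P21 and 540.8 to 791.2 FPKM at P1 in wild type, which did not. Of the 8 fibroblast markers 2 were higher and 1 lower in knockout (median log2 change -0.24), and 1 was higher and 4 lower in wild type (median -1.15). Endothelial markers summed to 534.4 to 2012.4 FPKM at P21 and 339.0 to 441.3 FPKM at P1, with 2 of 8 past the test as higher in knockout and 3 of 8 in wild type. The part of these cells in the age changes of the 9 genes was not tested.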

How the data were processed

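Total RNA of mouse heart was sequenced in 12 libraries, per the labels' protocols, after extraction with the miRNeasy micro kit and library making with the Ovation Ultralow V2 kit. The authors deposited FPKM values for 56748 genes; the tools named, per the submitters' processing notes, include TopHat2 2.0.13, featureCounts, Subread, edgeR and FastQC. The build of the table and its strand setting are not given in the sources used here. Depth was recovered as whole reads, since 100% of the nonzero values were whole multiples of a step within 0.05 of a read.

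A gene had to reach 1 FPKM in 3 or more of the 12 libraries to enter the test, which used limma 3.58.1 in R 4.3.3 on log2(FPKM + 0.5), with 1 mean per group, a trend and robust moderation, and Benjamini-Hochberg adjustment; the model was tested on simulated data. Figures used matplotlib 3.10.9. The members, pathway lists, marker lists (10 of each kind) and alternatives were chosen with earlier results of these data known. Named genes were the 9 genes, Csrp3, and per list and comparison up to 3 with the smallest adjusted p among those called. Alternatives were other pseudocounts, no minimum, TPM and a reduced total, library weights, only the groups compared, a replicate block, voom on recovered reads, and leaving out libraries. Some genes of the lists are counted with their list but not reported here by name.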

Additional observations from a re-analysis of the deposited data

How the results depend on the processing

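Counts of the 8 tested genes called with age were 3 in knockout, beside 25.0% of all tested genes, and 5 in wild type, beside 44.9%. When a library was left out the knockout count was 1 to 3, beside 15.4% to 31.1% of all tested genes. With TPM the wild-type count was 8, but 67.7% of all tested genes were called there, most of them as lower. The pathway counts that follow stand beside the share of all tested genes called. In knockout that share was 25.0%, with 15.4% to 31.1% when a library was left out and 50.0% with library weights. In wild type that share was 44.9%, with 31.5% to 51.9% when a library was left out and 31.7% with only the groups compared. Leaving out wild-type P21 libraries 1 and 2 kept only library 3 in that group, so no share is set beside that count. Counts over the 101 pathway genes were 34 in knockout (25 to 39 when a library was left out, 62 with library weights) and 58 in wild type (38 to 60 when a library was left out, 38 with only the groups compared, 31 without wild-type P21 libraries 1 and 2). For knockout against wild type at P21 the 0 calls among the 8 became 0 to 3 when a library was left out, and the single pathway call became 0 to 15 when a library was left out (15 without wild-type P21 library 3, where 13.4% of all tested genes were called), and 0 with no minimum, with TPM, with the reduced total, with only the groups compared, with the replicate block, with voom and without wild-type P21 libraries 1 and 2. For the P21 effect minus the P1 effect, counts of 0 became 0 to 1 among the 8 and 0 to 1 among pathway genes. Each count of 1 came without wild-type P21 library 3, where 2.16% of all tested genes were called.

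With the replicate block the 8 genes had the same counts, 3, 5, 0, 0 and 0, and pathway counts were 33, 56, 0, 0 and 0. Beside them stood 24.0%, 44.3%, 0.0517%, 0% and 0% of all tested genes. Same-numbered libraries correlated at -0.297 to 0.491 (median -0.0535, 6 of 18 pairs over 0.1), so the numbers were not taken as pairs. The highest values, 0.491 for library 2 and 0.352 for library 3, were both between knockout and wild type at P21, where library 1 gave 0.026. Library 2 against library 3 gave -0.475 and -0.355 there. A link between same-numbered P21 libraries was not tested.

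Signs that turned were all of values that did not pass the test as reported. With age in wild type, Adrb1 was 0.05 without wild-type P21 libraries 1 and 2 and -0.55 to 0.03 when a library was left out, and Chrm2 was -1.04 with TPM, -0.87 with the reduced total and -0.19 to 0.25 when a library was left out. For knockout against wild type at P21, TPM and the reduced total gave Adrb1 0.28 and 0.31, Adcy6 0.35 and 0.40, Pde4d 0.26 and 0.20 and Csrp3 0.27 and 0.33; library weights gave Adcy6 0.02 and Pde4d 0.14; a pseudocount of 0.1 gave Pde4d 0.03; and leaving out wild-type P21 libraries 1 and 2 gave Adcy5 -0.21 and Csrp3 0.63. Leaving out a library there gave Adrb1 -0.45 to 0.13, Adcy5 -0.09 to 0.31, Adcy6 -0.38 to 0.25, Pde4d -0.27 to 0.19, Csrp3 -0.47 to 0.18; at P1, Adcy5 -0.23 to 0.06, Chrm2 -0.35 to 0.04, Gnas -0.08 to 0.13; and for the P21 effect minus the P1 effect, Adrb1 -0.26 to 0.33, Adcy5 -0.02 to 0.38, Adcy6 -0.15 to 0.48, Pde4d -0.09 to 0.38. At P1, Gnas was -0.07 with TPM and -0.06 with the reduced total. For the difference of the effects, leaving out wild-type P21 libraries 1 and 2 gave Adrb1 -0.28, Adcy5 -0.14, Adcy6 -0.05 and Pde4d -0.22. The cause was not tested. Depth limits Adra1a, at 4 to 20 reads per library.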
